A study of Sus scrofa with 12 samples.

Results

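SLC36A2 and KCTD3 are described here in expanded and hatched pig blastocysts, by every array probe that carries either gene symbol. The array used, EMPV1, was built for transcripts of the early pig embryo and held 4 such probes of 24908, 1 for SLC36A2 (probe 6947) and 3 for KCTD3 (probes 29454, 34619 and 36815). They stand for 2 of the 7752 genes named on the array. Both genes were chosen by their measured differences between hatched and expanded parthenotes on these arrays, so their values in that comparison, and in any other that holds the same arrays, are given as a description with no test. Only the comparison of hatched with expanded in vivo embryos was measured on arrays that the choice did not use, and the members were tested there. The spread in that test was still estimated over all 12 arrays, so it holds the parthenote arrays as well. No filter on low values was applied, and all 4 probes had a value on all 12 arrays.

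SLC36A2 is a proton-coupled amino acid transporter. It carries small neutral amino acids, above all glycine and proline, across the cell membrane together with a proton, and in humans it is known from the kidney, where its loss contributes to the excretion of glycine and proline in urine. KCTD3 belongs to the family of proteins with a BTB domain of the potassium channel tetramerization type. Many members of that family recruit substrates to cullin 3 ubiquitin ligases, and KCTD3 is known in the mouse as a partner of the HCN3 channel, a hyperpolarization-activated cation channel.

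The 4 groups were PA HB, PA XB, IVV HB and IVV XB, with 3 arrays each, and each array measured a pool of 5 embryos. PA embryos were parthenotes, made from in vitro matured oocytes that were activated with calcium ionomycin followed by 6-DMAP and cultured in mNCSU-23 medium, and they carry a maternal genome only. IVV embryos were flushed from artificially inseminated gilts and were never cultured. XB were expanded blastocysts still inside the zona pellucida, and HB were hatched blastocysts that had left it. IVV HB were collected at 5.5 days after insemination, and IVV XB at 5, 5 and 6 days for replicates 1, 2 and 3. The labels give 7 for all PA HB and 5, 6 and 6 for PA XB replicates 1, 2 and 3, in a unit of hours that disagrees with the culture over days in the methods, so the times of the PA embryos are not settled. By these labels every PA HB pool was later than every PA XB pool, so hatching and time cannot be told apart in PA embryos. The IVV HB time lay within the IVV XB times. Parthenogenesis and culture in vitro were shared by every PA embryo and by no IVV embryo, so they cannot be told apart in any comparison of PA with IVV.

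Each value is a log2 ratio of the embryo RNA (Cy5) over a reference RNA pool (Cy3) made from 10 stages of development. A value of 0 is the level of that pool, and values of different probes are not levels that can be set against each other. The ratios of the PA arrays were spread more widely than those of the IVV arrays. The median absolute deviation over all probes was between 0.603 and 0.726 on PA HB arrays, 0.604 and 0.692 on PA XB arrays, 0.388 and 0.475 on IVV HB arrays, and 0.410 and 0.440 on IVV XB arrays. PA arrays were numbered 5 to 10 and IVV arrays 1 to 4, 11 and 12, and the sources used here do not say what the numbers stand for. The 2 genes were therefore also followed with all arrays brought to 1 spread and after quantile normalization. In pools of whole embryos, fewer cells of a type and less RNA per cell cannot be told apart.

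SLC36A2 was high in hatched parthenotes and in no other group. Its log2 ratios were 3.59, 3.77 and 3.49 in PA HB, against 1.07, -0.17 and 0.09 in PA XB. In IVV HB they were -0.70, -0.44 and -0.37, against -1.14, -1.99 and -0.61 in IVV XB. All 3 PA HB arrays lay above the other 9, and the gap between the lowest PA HB and the highest PA XB array was 2.42.

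The group means ran in the order PA HB, PA XB, IVV HB and IVV XB. PA HB averaged 3.62 ± 0.14 (SD, n = 3), which is 12.3 times the reference pool on the linear scale. PA XB averaged 0.33 ± 0.65, IVV HB -0.50 ± 0.17 and IVV XB -1.25 ± 0.69 (SD, n = 3 each). PA HB did not overlap with its neighbour in this order, and PA XB lay above all IVV HB arrays, by less than its own SD between the closest pair of arrays. IVV HB and IVV XB overlapped. Among the 24908 probes of each array ranked from the highest ratio, SLC36A2 stood at ranks 6, 171 and 344 in PA HB, against 1425, 13764 and 9789 in PA XB. It was at ranks 21460, 19143 and 19003 in IVV HB, and at 23243, 24126 and 20927 in IVV XB.

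**Figure D1:**
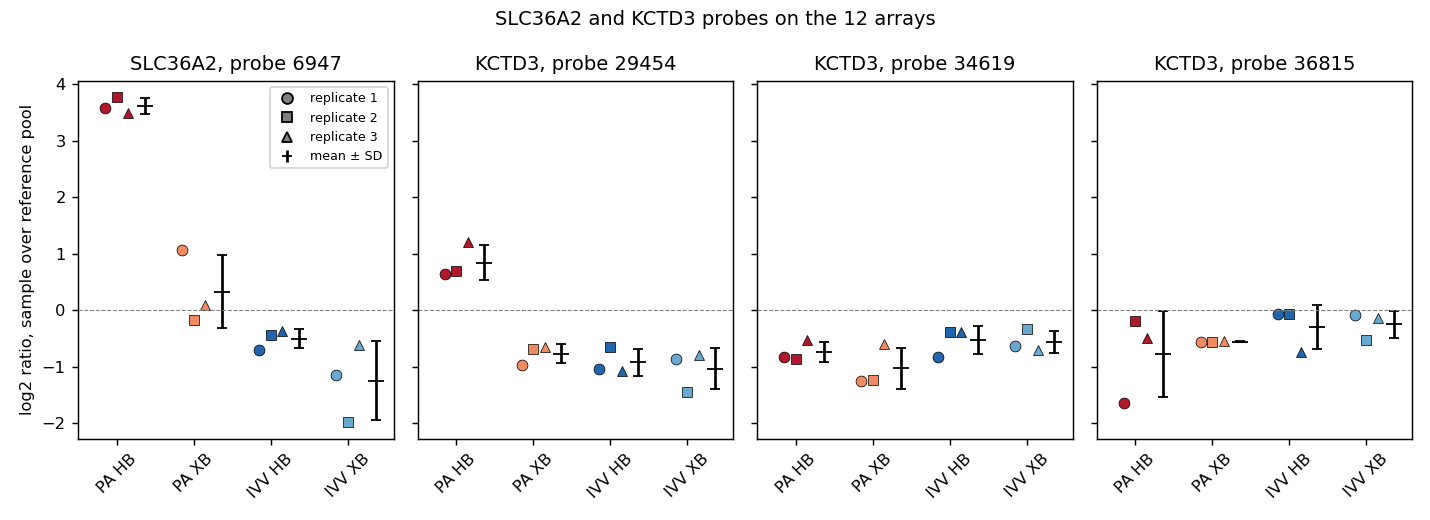
Log2 ratio of sample over reference pool (vertical axis) of the SLC36A2 probe and the 3 KCTD3 probes, one panel per probe, in PA HB, PA XB, IVV HB and IVV XB. Points are the 3 arrays of a group, and lines are the mean with its SD; SLC36A2 lies at 3.49 to 3.77 in PA HB and at 1.07 or below on the other 9 arrays, and of the KCTD3 probes only 29454 is above 0 in PA HB.

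The difference between PA HB and PA XB was 3.29 log2 units (SE 0.34), or 9.75-fold, for SLC36A2. It ranked first of 24908 probes in that comparison. In the pairs of PA arrays that share a replicate number, hatched minus expanded was 2.52, 3.94 and 3.40. PA XB replicate 1, which had the highest PA XB level and the smallest difference to its partner, is also the PA XB pool with the lowest labelled time. Its part in the result was not tested, but without it the difference was 3.65, and without PA XB replicate 2 it was 3.04. The size also moved with the spread of the arrays. It was 2.63 with all arrays at 1 spread and 2.30 after quantile normalization, where the PA HB arrays were at 3.25, 2.39 and 2.16, still above every array of the other groups.

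In all, 2 of 24908 probes (0.00803%) passed an adjusted p of 0.05 with a change of at least 2-fold between PA HB and PA XB in the limma fit, and SLC36A2 was the only named one. By the choice of the genes nothing can be read from that count of 1 of the 4 member probes. The arrays of PA HB and PA XB did not overlap for 9.58% of all probes, 4.91% with PA HB higher and 4.67% with PA HB lower. Among the members they did not overlap for SLC36A2 and for KCTD3 probe 29454, both higher in PA HB. Replicate numbers may pair the PA arrays, and with the replicate number as a block the count over all probes was 8.

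Between hatched embryos of the 2 origins, SLC36A2 stood 4.12 log2 units (SE 0.34) or 17.4-fold above IVV HB in PA HB. That was the fourth largest positive difference of all probes, and the gap between the groups was 3.86. Arrays of PA HB and IVV HB did not overlap for 30% of all probes (15.7% with PA HB higher and 14.3% with PA HB lower), so that a lack of overlap was common in this comparison. The difference was 3.54 with arrays at 1 spread and 3.21 after quantile normalization. In expanded blastocysts SLC36A2 was 1.58 log2 units (SE 0.34) or 2.98-fold higher in PA XB than in IVV XB, at rank 950 of all probes, with a gap of 0.45. No overlap between PA XB and IVV XB was found for 37.2% of all probes (19.8% with PA XB higher and 17.4% with PA XB lower).

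**Figure D2:**
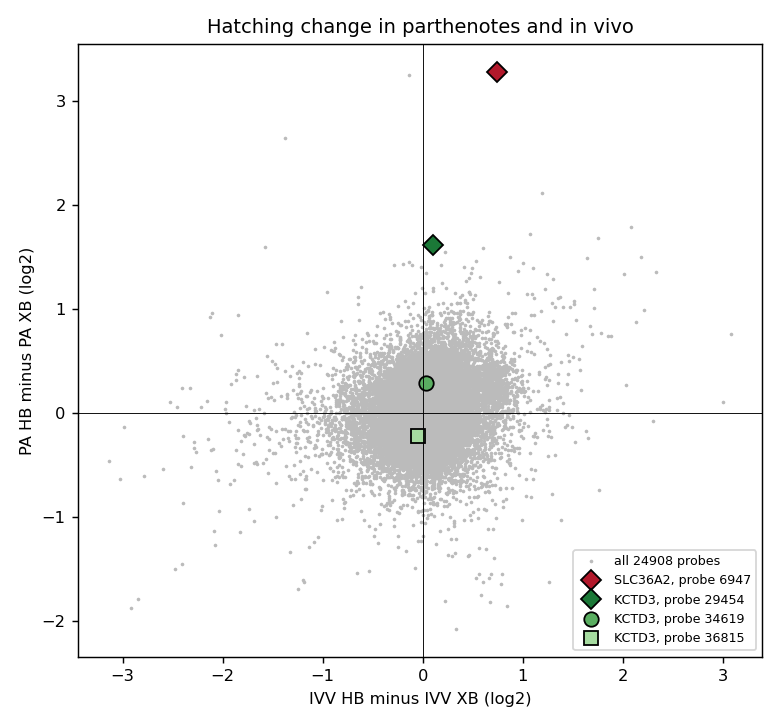
Hatched minus expanded difference of log2 ratios in PA embryos against the same difference in IVV embryos, for all 24908 probes, with the 4 member probes marked. SLC36A2 lies at 3.29 in PA and 0.74 in IVV embryos, KCTD3 probe 29454 at 1.62 and 0.11, and the other KCTD3 probes lie within the bulk of the probes.

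In IVV embryos, on arrays the choice had not used, the difference of SLC36A2 between IVV HB and IVV XB was 0.74 log2 units, or 1.67-fold, with a 95% interval of 0.01 to 1.47. It did not pass the adjusted limit (limma adjusted p = 0.765, from an unadjusted value of 0.0469), and IVV HB overlapped with IVV XB through IVV XB replicate 3, at -0.61. That pool was collected at 6 days, later than the IVV HB pools. Without it the difference was 1.06, and without IVV XB replicate 2, the lowest array, it was 0.37. The interval and p above use a spread estimated with the PA arrays included. Fitted to the IVV groups alone, the difference of 0.74 had an SE of 0.31 (limma adjusted p = 0.581). The adjusted p over the alternatives lay between 0.250 and 1.00. Over all probes, 0.149% were called between IVV HB and IVV XB. That was 0.0642% higher and 0.0843% lower, or 16 and 21 probes, and with arrays at 1 spread 74 and 57. The arrays of the IVV groups did not overlap for 12.1% of all probes, 6.19% with IVV HB higher and 5.91% with IVV HB lower. Of the 4 member probes 0 were called and 0 were free of overlap, and at an unadjusted p under 0.05 SLC36A2 was the only member, beside 1583 of all probes.

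The difference between hatched and expanded embryos was larger in PA than in IVV embryos by 2.54 log2 units (SE 0.48) for SLC36A2, at rank 13 of all probes. With arrays at 1 spread this value was 1.73, and after quantile normalization 1.58. It holds the PA arrays on which the gene was chosen, so it carries no test.

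KCTD3 was measured by 3 probes, and they did not show the same pattern. Probe 29454 read 0.64, 0.69 and 1.21 in PA HB, against -0.96, -0.69 and -0.66 in PA XB. It read -1.03, -0.66 and -1.08 in IVV HB, against -0.86, -1.45 and -0.79 in IVV XB. The 3 PA HB arrays stood above 0 and all 9 others below it, while PA XB, IVV HB and IVV XB overlapped with each other.

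The mean of probe 29454 was 0.85 ± 0.32 in PA HB, -0.77 ± 0.17 in PA XB, -0.92 ± 0.23 in IVV HB and -1.03 ± 0.36 in IVV XB (SD, n = 3 each). In PA HB this is 1.80 times the reference pool. PA HB was 1.62 log2 units (SE 0.23) or 3.07-fold above PA XB, the ninth largest positive difference of all probes, with a gap of 1.30 between the groups. The pairs of PA arrays differed by 1.60, 1.38 and 1.87. With arrays at 1 spread the difference was 1.33 and after quantile normalization 1.34, and without single arrays it lay between 1.43 and 1.72.

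Against IVV HB, probe 29454 was 1.77 log2 units or 3.41-fold higher in PA HB, at rank 454 with a gap of 1.29. Against IVV XB it was 0.26 higher in PA XB, with overlapping arrays. In IVV embryos the difference between IVV HB and IVV XB was 0.11, with a 95% interval of -0.39 to 0.60, and did not pass the test (limma adjusted p = 0.998). The interval leaves out a change of 2-fold in either direction. Hatched minus expanded was 1.51 log2 units (SE 0.32) larger in PA than in IVV embryos, at rank 98 of all probes, against rank 13 for SLC36A2.

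The other KCTD3 probes showed no such step. Probe 34619 read -0.83, -0.86 and -0.53 in PA HB, against -1.26, -1.23 and -0.60 in PA XB. It read -0.82, -0.38 and -0.38 in IVV HB, against -0.63, -0.34 and -0.71 in IVV XB. All 12 arrays were below 0, and the groups overlapped in every comparison. PA HB minus PA XB was 0.29, PA XB minus IVV XB was -0.47, and PA HB minus IVV HB was -0.22, a sign that turned with arrays at 1 spread (0.08) and after quantile normalization (0.01).

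Probe 36815, the KCTD3 probe whose symbol rests on a transcript accession in the probe table, read -1.64, -0.19 and -0.50 in PA HB, against -0.56, -0.56 and -0.54 in PA XB. It read -0.06, -0.06 and -0.74 in IVV HB, against -0.09, -0.52 and -0.13 in IVV XB. PA HB replicate 1 was the lowest of the 12 arrays, and the pairs of PA arrays gave -1.08, 0.37 and 0.04, so that this probe had no common direction between PA HB and PA XB. PA XB and IVV XB did not overlap, with a PA XB minus IVV XB of -0.31 and a gap of 0.02.

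In IVV HB against IVV XB, probe 34619 differed by 0.04 (95% interval -0.44 to 0.51) and probe 36815 by -0.04 (95% interval -0.72 to 0.64), both with a limma adjusted p of 0.998. The mean of the 3 KCTD3 probes was 0.56 higher in PA HB than in PA XB, and 0.36 above IVV HB. It was -0.17 in PA XB minus IVV XB, where probe 29454 alone gave 0.26. The result for KCTD3 in hatched parthenotes thus rested on 1 of its 3 probes. The study's own array analysis reported KCTD3, ANXA8 and SLC36A2 as significantly higher in PA HB than in PA XB. It reported no such change of these genes in IVV embryos. In the fit used here, no KCTD3 probe was called between PA HB and PA XB. By the study's own QPCR, SLC36A2 was higher in PA HB than in PA XB, while KCTD3 showed no significant change.

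Over the 12 arrays, probe 29454 had a correlation of -0.09 with probe 34619 and of -0.32 with probe 36815, and the last pair had 0.13. These are descriptions over arrays that share 4 groups and 1 reference pool. Low agreement between probes of 1 gene was common on this array, where the median correlation of 4924 pairs of probes with the same symbol was 0.16, with quartiles of -0.18 and 0.49. In PA HB against IVV HB, 96 genes with 3 probes had at least 1 probe called, and for 15 of them (15.6%) a further probe was called in the same direction. In PA XB against IVV XB this held for 22 of 139 such genes. Which transcripts each probe binds was not analysed here, so the probes of KCTD3 could not be placed on the gene.

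None of the other measured SLC36 transporters was called between PA HB and PA XB, where 0.00803% of all probes were. SLC36A1, which exports amino acids from lysosomes and takes them up at the gut brush border, read 1.03, 0.09 and 0.85 in PA HB, against 0.02, 0.55 and 0.79 in PA XB. It read 0.10, 0.03 and 0.04 in IVV HB, against 0.19, 0.13 and 0.38 in IVV XB. PA HB and PA XB overlapped and differed by 0.20 (limma adjusted p = 0.958), and PA HB and IVV HB differed by 0.60 (limma adjusted p = 0.144).

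SLC36A3, a close paralog known mainly from the testis, read -1.80, -1.55 and -1.62 in PA HB, against -2.26, -1.87 and -1.81 in PA XB. It read -2.59, -2.23 and -2.37 in IVV HB, against -2.76, -3.31 and -2.75 in IVV XB. PA XB and IVV HB overlapped, while PA HB lay above PA XB and IVV HB above IVV XB on every array, and the order of the means was that of SLC36A2 with smaller steps. PA HB minus PA XB was 0.32 (SE 0.21, limma adjusted p = 0.875). PA HB minus IVV HB was 0.74 (limma adjusted p = 0.0321) and PA XB minus IVV XB 0.96 (limma adjusted p = 0.00599), both past the p limit and under 2-fold. With arrays at 1 spread these became 1.64 and 1.99, and PA XB minus IVV XB also passed 2-fold without PA XB replicate 1 (1.10), IVV XB replicate 1 (1.05) or IVV XB replicate 3 (1.06). SLC36A2 and SLC36A3 lie side by side in the pig genome, and whether one transcript binds to the probe of the other was not tested.

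SLC36A4, a transporter of proline and tryptophan that does not move protons, was 0.15 higher in PA HB than in PA XB and did not pass the test in any comparison. The lowest adjusted p was that of PA XB minus IVV XB (-0.47, limma adjusted p = 0.103). Of the 3 SLC36 genes measured beside SLC36A2, 0 were called in each of the 4 comparisons, beside 0.00803% to 12.6% of all probes.

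**Figure D3:**
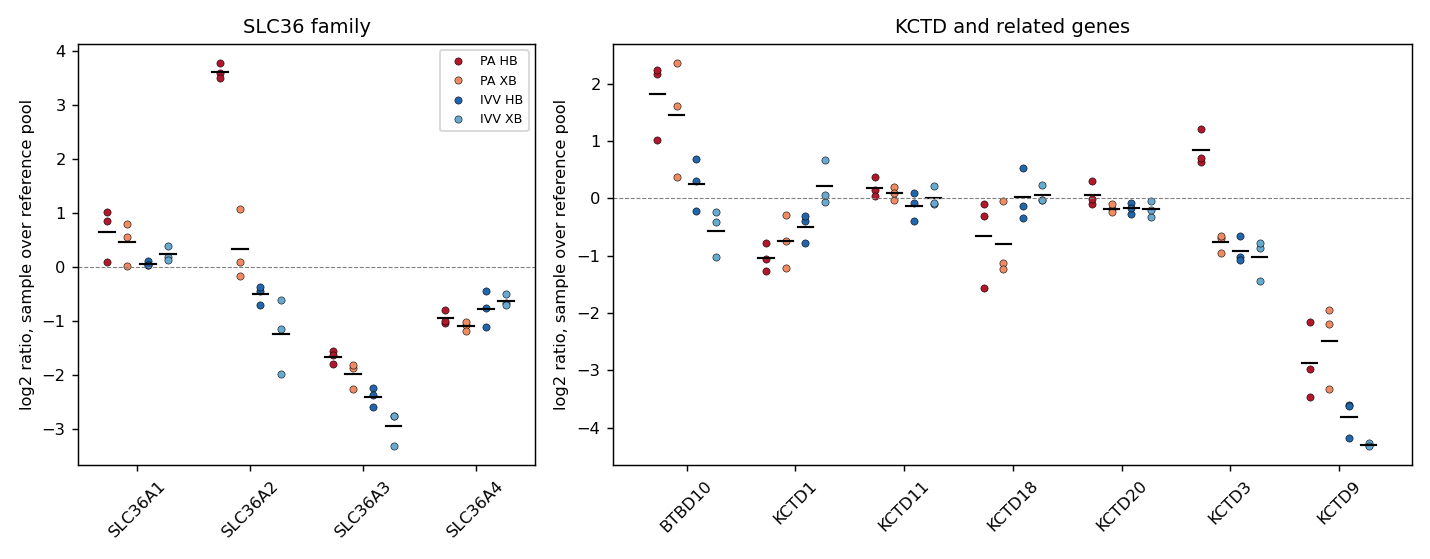
Log2 ratio of sample over reference pool (vertical axis) of the measured SLC36 genes (left panel) and KCTD and related genes (right panel), 1 probe per gene, with the 4 groups side by side in the order PA HB, PA XB, IVV HB and IVV XB. Points are the 3 arrays of a group and short lines their mean; PA HB minus PA XB is 3.29 for SLC36A2 and 1.62 for KCTD3, and between -0.38 and 0.37 for the other genes drawn.

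Beyond the family, the list of amino acid transporters held 24 measured genes of 52. Hatching in PA embryos gave 0 calls among them, beside 0.00803% of all probes called. Their differences were -0.41 to 0.65 with a median of 0.07, beside a median of 0.00 over all probes. In PA HB against IVV HB 1 was higher and 2 were lower, beside 8.5% of all probes called (4.87% higher and 3.63% lower, that is 1213 and 905 probes, and after quantile normalization 445 and 587). In PA XB against IVV XB 1 was higher and 3 were lower, beside 12.6% of all probes (7.04% higher and 5.51% lower).

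SLC3A1, the heavy chain of the b0,+ transporter of cystine and basic amino acids, averaged -2.06 ± 0.54 in PA XB and 1.01 ± 1.40 in IVV XB (SD, n = 3 each). It was lower in PA XB, at a difference of -3.07 (SE 0.53, limma adjusted p = 0.00211), but its other probe gave -0.03. SLC7A7, the light chain of the y+L transporter, was lower in PA XB than in IVV XB, at -1.45 (SE 0.27, limma adjusted p = 0.00283). SLC7A8, the light chain of an exchanger of neutral amino acids, was 1.65 log2 units higher in PA XB than in IVV XB (SE 0.33, limma adjusted p = 0.00444), with 0.98 on its other probe. Between the hatched groups SLC3A1 was at -2.17 and SLC7A8 at 1.17 in PA HB minus IVV HB (limma adjusted p = 0.0197 and 0.0332), and both calls were lost without PA HB replicate 2 (differences of -2.12 and 1.09), PA HB replicate 3 (-1.88 and 1.02), IVV HB replicate 1 (-2.09 and 0.88) or IVV HB replicate 3 (-2.22 and 1.18). Quantile normalization also ended both calls (-2.34 and 0.78), and with arrays at 1 spread that of SLC7A8 was lost (0.88). The transporters called were called between the origins, where 8.5% (HB) and 12.6% (XB) of all probes were called. None was called with hatching in either, where 0.00803% (PA) and 0.149% (IVV) of all probes were called. At those shares nothing can be read from the lack of calls with hatching among these genes.

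Proton exchangers, which set the proton gradient that SLC36 transporters use, were measured for 7 of 16 genes, and 0 were called in any comparison. Their median difference was -0.16 between PA HB and PA XB. Of all probes, 0.00803% were called between PA HB and PA XB and 0.149% between IVV HB and IVV XB. Between the origins 8.5% were called in HB and 12.6% in XB. Of the genes of glycine and proline metabolism, 17 of 35 were measured. None was called between PA HB and PA XB (median -0.11), 2 were lower in PA HB than IVV HB, and 1 was higher and 3 lower in PA XB than in IVV XB.

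PEPD, which splits dipeptides that end in proline, averaged -0.43 ± 0.42 in PA HB, against 0.68 ± 0.25 in IVV HB (SD, n = 3 each), a difference of -1.11 (SE 0.27, limma adjusted p = 0.0185). The call was lost without PA HB replicate 2 (-0.996), PA HB replicate 3 (-0.990) or IVV HB replicate 3 (-0.993). GCSH, the lipoyl carrier of the glycine cleavage system, was lower in PA HB than IVV HB, at -1.06 (SE 0.32, limma adjusted p = 0.0447), and that call was lost without any one of 5 of the 6 arrays compared, the exception being IVV HB replicate 3, with differences between -1.16 and -0.72. It was also lost with those groups alone (-1.06, limma adjusted p = 0.0658) and after quantile normalization (-1.47). These calls were close to the limit. No gene of this list was called with hatching, where 0.00803% (PA) and 0.149% (IVV) of all probes were, so nothing can be read from that.

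Genes that sense or respond to amino acids were measured for 23 of 42. None was called between PA HB and PA XB (median 0.07), beside 0.00803% of all probes. Of all probes 8.5% were called between PA HB and IVV HB and 12.6% between PA XB and IVV XB. Lower in PA HB than IVV HB were 2 genes, SLC38A9, the lysosomal arginine sensor, at -1.28 (SE 0.27, limma adjusted p = 0.0109), and MIOS, a part of the GATOR2 complex upstream of mTORC1, at -1.11 (SE 0.26, limma adjusted p = 0.0155). With IVV HB replicate 1 left out both were lost, at -1.16 and -0.98, as they were with arrays at 1 spread, at -0.92 and -0.72. MIOS was also lost when PA HB replicate 2 was left out (-0.75) and after quantile normalization (-0.90). SEH1L, a further part of GATOR2 that also serves the nuclear pore, was lower in PA XB than in IVV XB, at -1.58 (SE 0.29, limma adjusted p = 0.00303).

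EIF2AK4, the kinase GCN2 that responds to uncharged transfer RNA, was the only gene of all 8 lists called with hatching in IVV embryos. That was 1 of 132 measured genes (0.758%), beside 0.149% of all probes. Over the alternatives the count lay between 0 and 3, so little can be read from it. EIF2AK4 averaged -2.09 ± 0.25 in IVV HB and -0.25 ± 0.44 in IVV XB (SD, n = 3 each), and was lower in IVV HB, at a difference of -1.84 (SE 0.26, limma adjusted p = 0.0108). The call was lost without IVV HB replicate 3 (-1.71, limma adjusted p = 0.0947), IVV XB replicate 1 (-1.78, limma adjusted p = 0.0828) or IVV XB replicate 2 (-1.66, limma adjusted p = 0.0952). In PA embryos it was -0.50 in PA HB minus PA XB (limma adjusted p = 0.823).

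The KCTD family list held 24 genes beside KCTD3, of which 6 were measured. Their differences between PA HB and PA XB lay between -0.38 and 0.37 with a median of 0.12. In that comparison 0 were called, beside 0.00803% of all probes. KCTD9, a family member with pentapeptide repeats, was 1.81 log2 units higher in PA XB than in IVV XB (SE 0.36, limma adjusted p = 0.0044), on 1 of 6 probes, with 0.16 to 1.45 on the others. BTBD10, a related BTB protein, was 2.01 higher in PA XB than in IVV XB (SE 0.45, limma adjusted p = 0.00764), with 0.06 to 0.35 on its other probes. Between the hatched groups BTBD10 was at 1.56 (limma adjusted p = 0.0377), a call lost without PA HB replicate 2 (1.38), PA HB replicate 3 (1.34), IVV HB replicate 1 (1.32) or IVV HB replicate 3 (1.58), with arrays at 1 spread (1.18) and after quantile normalization (0.99). In PA XB minus IVV XB the BTBD10 call rested on 1 probe, as the KCTD3 result did in hatched parthenotes. For KCTD9 another probe reached 1.45.

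Of cullin 3 ubiquitin ligase genes, 33 of 63 were measured. Between PA HB and PA XB 0 were called (median 0.07), beside 0.00803% of all probes. Set against IVV HB, 2 were higher and 1 was lower in PA HB, beside 8.5% of all probes called. Between PA XB and IVV XB 4 were higher and 2 lower, beside 12.6% of all probes. COPS5 and COPS8 are subunits of the COP9 signalosome, which removes NEDD8 from cullins, and they differed in opposite directions. COPS8 averaged 0.97 ± 0.27 in PA HB, against -0.39 ± 0.48 in IVV HB, and 0.80 ± 0.23 in PA XB, against -0.87 ± 0.32 in IVV XB (SD, n = 3 each). It was higher in PA HB than IVV HB by 1.37 and in PA XB than IVV XB by 1.67 (SE 0.26 each, limma adjusted p = 0.00608 and 0.00109), with 0.18 and 0.50 on its other probe.

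COPS5 was lower in PA XB than in IVV XB, at -1.83 (SE 0.24, limma adjusted p = 4.44e-04), on 1 of 6 probes, with -0.94 to 0.22 on the others. In the hatched groups it was lower in PA HB, at -1.16 (limma adjusted p = 0.00895), a call lost when PA HB replicate 2 (-0.92) or IVV HB replicate 1 (-1.06) was left out, with arrays at 1 spread (-0.73) and after quantile normalization (-0.95). GLMN, which binds the RING protein RBX1 of cullin ligases, was 1.39 higher in PA XB than in IVV XB (SE 0.19, limma adjusted p = 6.21e-04). UBA3, a subunit of the enzyme that activates NEDD8, was lower in PA XB than in IVV XB, at -1.14 (SE 0.19, limma adjusted p = 0.00188), on 1 of 5 probes, and under 2-fold with arrays at 1 spread (-0.84) or after quantile normalization (-0.98).

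The list of HCN and potassium channels had 20 measured genes of 50. Between PA HB and PA XB 0 were called, beside 0.00803% of all probes, and the median was 0.20. In PA HB against IVV HB 2 were higher and 0 lower, beside 8.5% of all probes called. In PA XB against IVV XB 3 were higher and 1 was lower, beside 12.6%. HCN3, the channel that KCTD3 is known to bind in the mouse, averaged -0.35 ± 0.30 in PA HB and -0.19 ± 0.31 in PA XB (SD, n = 3 each), and it was not called in any comparison. It was named after its values were seen. KCNC1, a voltage-gated potassium channel, was 2.34 higher in PA XB than in IVV XB (SE 0.47, limma adjusted p = 0.00451). In PA HB minus IVV HB it was at 1.88 (limma adjusted p = 0.0208), lost without PA HB replicate 2 (1.82), PA HB replicate 3 (1.58) or IVV HB replicate 1 (1.42). KCNMB4 went the other way, at -1.79 in PA XB minus IVV XB, a call lost without IVV XB replicate 1 (-1.48) or IVV XB replicate 2 (-1.54). KCNA3 was called higher in PA HB than IVV HB (1.89) and in PA XB than IVV XB (2.03). Both calls of KCNA3 were lost with arrays at 1 spread and after quantile normalization.

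Over the 8 lists together, 132 genes were measured. Between PA HB and PA XB 0 of them were called, beside 0.00803% of all probes, also under each alternative fitted to single probes. At that share nothing can be read from a count of 0 among these genes. In PA HB against IVV HB 6 were higher and 6 lower (9.09%, beside 8.5% of all probes), and between PA XB and IVV XB 12 were higher and 11 lower (17.4%, beside 12.6%). Over the alternatives the first count lay between 2, when IVV HB replicate 1 was left out, and 15, when PA HB replicate 1 was. The second count lay between 13, when IVV XB replicate 2 was left out, and 25, when IVV XB replicate 3 was. Each list gene was counted by its probe with the lowest moderated F p, while the shares over all probes hold every probe. These are unlike measures, so a higher share in the lists cannot be read as a result about their genes.

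Some genes had levels over the 12 arrays close to those of the members. Highest for SLC36A2 were P2RX4, an ATP-gated cation channel (Pearson r = 0.97), CTDSPL, a phosphatase (0.95), CTSH, the lysosomal protease cathepsin H (0.94), RNF152, a lysosomal ubiquitin ligase (0.94), and CAPG, a protein that caps actin filaments (0.94). P2RX4 averaged 1.19 ± 0.16 in PA HB, -0.27 ± 0.26 in PA XB, -0.83 ± 0.38 in IVV HB and -1.36 ± 0.39 in IVV XB (SD, n = 3 each), the order of SLC36A2. Once each group's mean was taken out, r with SLC36A2 was 0.62 for P2RX4, 0.71 for CTDSPL, 0.88 for CTSH, 0.55 for RNF152 and 0.42 for CAPG. In all, 51 of the other 24907 probes (0.205%) had an r of at least 0.9 with SLC36A2, 25 of them with a symbol, and the median r was 0.04.

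The lowest r with SLC36A2 was that of MFGE8, a secreted milk fat globule protein (-0.93), GK, glycerol kinase (-0.92), and JPT2 (-0.91). The other probes of MFGE8 gave between -0.29 and 0.86, the other probe of GK gave -0.13, and those of JPT2 gave -0.84 to -0.74. On the probe with the low r, GK averaged -0.85 ± 0.04 in PA HB, -0.34 ± 0.11 in PA XB, 0.28 ± 0.08 in IVV HB and 0.49 ± 0.06 in IVV XB (SD, n = 3 each). That is the reverse order of SLC36A2, on 1 of its probes.

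For KCTD3 probe 29454, r was highest for SLITRK1, a neuronal transmembrane protein (0.94), NCAPH2, a condensin II subunit (0.93), SLC36A2 (0.93), MYL7, an atrial myosin light chain (0.91), and PA2G4, a growth regulator (0.91). MYL7 averaged 1.63 ± 0.55 in PA HB, 0.43 ± 0.17 in PA XB, 0.09 ± 0.24 in IVV HB and 0.09 ± 0.14 in IVV XB (SD, n = 3 each), so that, as for KCTD3, PA HB stood apart from 3 groups close to each other. Within groups, r between KCTD3 and SLC36A2 was 0.21, against 0.84 for NCAPH2 and 0.71 for SLITRK1. Over the 12 arrays, the other probe of NCAPH2 gave 0.42 and the other probes of PA2G4 gave -0.67 to -0.09. Lowest were FAM163A (-0.91), JPT2 (-0.90) and PLCB1, a phospholipase C (-0.90). The arrays are 4 groups of 3 with 1 reference pool, so that an r over all 12 mainly orders the group means.

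**Figure D4:**
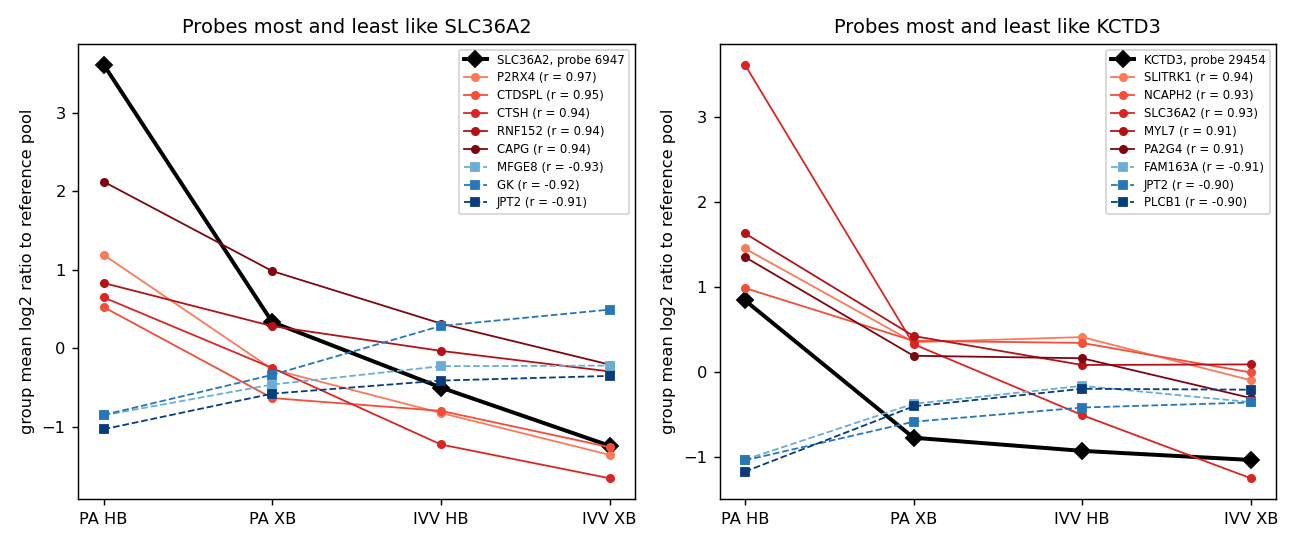
Group means of log2 ratios to the reference pool (vertical axis, n = 3 arrays) in PA HB, PA XB, IVV HB and IVV XB for SLC36A2 (left panel) and KCTD3 probe 29454 (right panel), drawn in black. Solid coloured lines are the 5 named genes with the highest r over the 12 arrays and dashed lines the 3 with the lowest. P2RX4 steps down through the groups in the order of SLC36A2, and MYL7 is at 1.63 in PA HB and at 0.43 or below in the other groups.

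The genes beside the members on their chromosomes were read as well. Around SLC36A2, on chromosome 16, the nearest measured genes were SLC36A1, FAT2 and G3BP1 on one side and SLC36A3, ANXA6 and TNIP1 on the other. Of these 6 genes, 0 were called in any of the 4 comparisons, beside 0.00803% to 12.6% of all probes. Their PA HB minus PA XB lay between -0.22 and 0.32. Around KCTD3, on chromosome 10, the measured genes were RGS2 and GLRX2 on one side and ESRRG, TGFB2 and LYPLAL1 on the other. Only RGS2, a regulator of G protein signaling, was called, between PA HB and IVV HB (1.58, SE 0.45, limma adjusted p = 0.0349). That call was lost without PA HB replicate 2 (1.53), PA HB replicate 3 (1.32), IVV HB replicate 1 (1.16) or IVV HB replicate 3 (1.78), and after quantile normalization (0.84).

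Markers of cell types were read beside these results. Trophectoderm markers were measured for 7 of 8 genes, and their median over an array was 0.95 to 1.57 in PA HB, 1.22 to 1.62 in PA XB, 0.50 to 0.76 in IVV HB and -0.17 to 0.28 in IVV XB. In the values as deposited, the list median was thus higher in both PA groups than in both IVV groups. It was without the step between PA HB and PA XB that SLC36A2 and KCTD3 probe 29454 showed. The PA arrays were spread more widely. The medians of the marker lists were not followed with arrays at 1 spread or after quantile normalization. KRT8, a trophectoderm keratin, differed by 0.05 between PA HB and PA XB and by 1.23 between PA HB and IVV HB (limma adjusted p = 0.00547), which was 0.92 with arrays at 1 spread and 0.88 after quantile normalization, both no longer called. KRT18, the partner keratin, went the other way on the arrays, at -1.72 in PA HB minus IVV HB (limma adjusted p = 0.00341). The study's QPCR found both keratins lower in PA HB than in IVV HB, for KRT8 the opposite of this array value. GATA6, a hypoblast factor, was at 2.54 in PA HB as in PA XB, and 2.06 higher in PA HB than IVV HB (limma adjusted p = 0.00448). The other hypoblast markers measured, PDGFRA and APOA1, were at 0.22 and -0.40 in PA HB minus IVV HB and were not called. The array medians of the 3 hypoblast markers were -0.23 to 0.21 in PA HB and -0.29 to 0.52 in IVV HB. Those 2 groups overlapped, and the medians were 0.19 to 0.32 in PA XB and -0.04 to 0.13 in IVV XB. The array medians of 5 oocyte and cumulus markers were between -1.54 and -0.89 in PA HB, -2.04 and -0.66 in PA XB, -2.92 and -2.04 in IVV HB, and -2.74 and -2.33 in IVV XB. None of the measured markers was called between PA HB and PA XB, where 0.00803% of all probes were. The part of the markers in the differences between PA and IVV was not tested. Of the inner cell mass markers only POU5F1 and of the leukocyte and uterine markers only PTPRC were measured, so those cell types could not be followed.

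**Figure D5:**
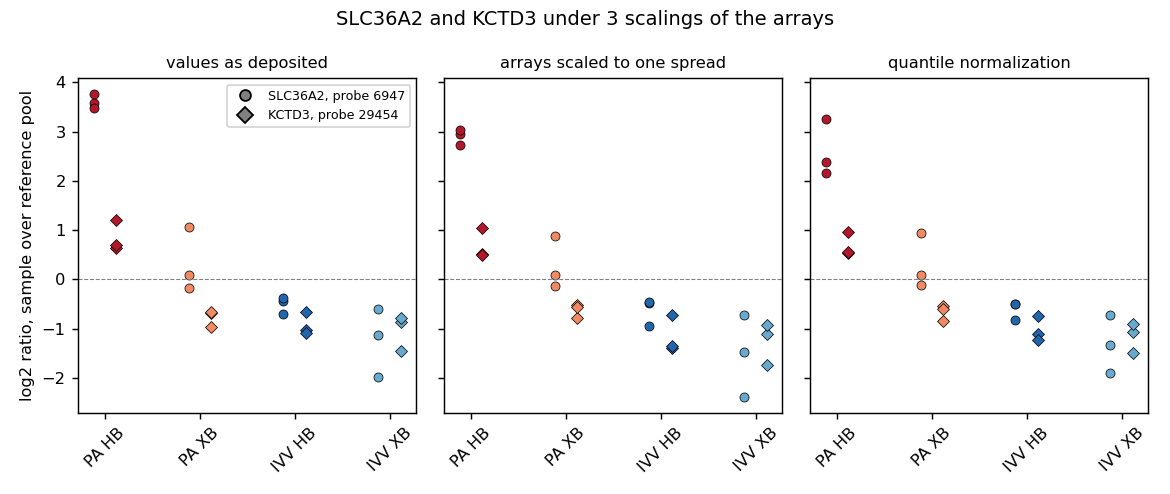
Log2 ratios of SLC36A2 (probe 6947) and KCTD3 (probe 29454) per array in PA HB, PA XB, IVV HB and IVV XB as deposited, with all arrays at 1 spread, and after quantile normalization. Points are arrays; the PA HB arrays of SLC36A2 lie between 3.49 and 3.77, 2.74 and 3.04, and 2.16 and 3.25 in the 3 versions, above all other arrays each time.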

How the data were processed

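The authors deposited log2 ratios of sample over reference, made from scanned EMPV1 arrays after 2 rounds of RNA amplification. In FlexArray, per their methods, background was subtracted and each array was loess-normalized on its own. Spot intensities were not used here, so whether a probe was near background is not known, and the number of arrays, 3 per group, limits the precision. Base and direction of the ratio were checked against the study's supplementary list: 781 of 1031 genes had a probe within 5e-04 of it. Gene symbols came from the platform annotation (10735 probes with 1 symbol, 14173 with none, 0 with several). Of 2849 probes with an accession 1616 matched RefSeq, which renamed 75, and synonyms renamed 136 more.

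In limma 3.58.1 (R 4.3.3), 1 mean for each group was estimated from the 12 arrays together (8 residual and 5.64 prior degrees of freedom), with Benjamini-Hochberg adjustment over 24908 probes. Files were read by data.table (version 1.17.8). As in the methods, called probes had adjusted p-values up to 0.05 and changes of at least 2-fold. The pools are biological replicates per the labels. The fit was tested on simulated data. Python 3.11.15 and matplotlib 3.10.9 made the figures.

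The 2 genes and the gene lists were chosen with earlier results of these data known. A list gene was represented by its probe with the lowest moderated F p. Such probes were picked on the same data, while the shares over all probes given beside the list counts hold every probe. Named were all genes of lists with up to 4 measured genes, otherwise up to 4 called genes of lowest adjusted p, not all of which are described, the 5 highest and 3 lowest correlations per member, and up to 3 measured neighbours on each side. Neighbours were ordered by the RefSeq table of assembly Sscrofa11.1.

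Replicate numbers were checked for pairing. Deviations from the group means correlated at 0.45, 0.32 and 0.22 between same-numbered PA HB and PA XB arrays, each above 0.1. Those of IVV HB and IVV XB gave 0.03, -0.13 and 0.20. Same-numbered PA HB and IVV HB arrays, of different origins, gave 0.23, 0.13 and 0.02. Replicate numbers may thus pair the PA arrays, but these values do not establish it. There were 20 alternative fits. CT embryos and QPCR data were not analysed here, and QPCR results are given only as the study states them.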

Additional observations from a re-analysis of the deposited data

How the results depend on the processing

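Signs of SLC36A2 and of KCTD3 probe 29454 between PA HB and PA XB held under all alternatives, and sizes depended on the spread of the arrays. With arrays at 1 spread and after quantile normalization, SLC36A2 gave 2.63 and 2.30 for PA HB minus PA XB, 3.54 and 3.21 for PA HB minus IVV HB, and 1.73 and 1.58 for the PA minus IVV hatching change. KCTD3 probe 29454 gave 1.33 and 1.34 for PA HB minus PA XB, and 1.22 and 1.21 for the hatching change, and 0.63 for PA XB minus IVV XB at 1 spread. With the mean of its 3 probes these 3 values were 0.56, 0.53 and -0.17, and PA HB minus IVV HB was 0.36. Probes called between PA HB and PA XB numbered 0 at 1 spread, 1 after quantile normalization, 0 with those groups alone, 8 with the replicate block and 24 with those groups alone and the replicate block (chosen after seeing the data), beside 2 in the fit as reported. Without single arrays there were 2 to 3. Between PA HB and IVV HB, 2118 became 1032 after quantile normalization and, without single arrays, 649 (IVV HB replicate 1 left out) to 2658 (PA HB replicate 1 left out), with 976 when PA HB replicate 2 and 1318 when IVV HB replicate 3 was left out. Between IVV HB and IVV XB, 37 became 131 at 1 spread, 125 after quantile normalization, 68 with the replicate block, and 5 (without IVV HB replicate 3) to 271 (without IVV XB replicate 3) without single arrays. It was 67 and 20 without IVV HB replicates 1 and 2, and 14 and 6 without IVV XB replicates 1 and 2. Between PA XB and IVV XB, 3126 became 4863 with no fold limit. For the hatching change, 2 became 1 under either scaling and 0 to 71 (without IVV XB replicate 3) without single arrays. Adding the replicate block changed no call of a member in IVV HB against IVV XB. KCTD3 probe 34619 was not among the more variable 50% of probes and has no value there. Causes of these shifts were not tested. With 3 arrays per group and no intensities, small changes and levels near background could not be resolved.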

Other observations

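A probe without a gene symbol was, beside SLC36A2, the other of the 2 probes called between PA HB and PA XB. The highest correlation of an unnamed probe over the 12 arrays was 0.95 with SLC36A2, below the 0.97 of P2RX4, and 0.96 with KCTD3 probe 29454, above the 0.94 of SLITRK1, where 9 of 24905 probes (0.0361%) reached at least 0.9. Between KCTD3 probe 29454 and SLC36A2 r was 0.93 over the 12 arrays and 0.21 within groups. Between SLC36A2 and the other KCTD3 probes it was -0.28 (probe 34619) and -0.44 (probe 36815).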
